A study of Rattus norvegicus with 33 samples.

Results

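The genes described here encode 10 enzymes and carriers of steroid metabolism: Star, Cyp11a1, Cyp17a1, Cyp19a1, Hsd17b2, Hsd17b4, Hsd17b10, Srd5a1, Srd5a2 and Sts. They were chosen as the non-control probes that carried one of these names in the array files, 14 probes in all, with the brightest probe standing for each gene, and 9 of the 10 genes were among the 23345 genes tested. Prostate RNA of male Sprague-Dawley rats was hybridised to 33 single-colour Agilent microarrays, 1 for each sample. The labels of the samples name the whole prostate while the title names dorsolateral prostates, and the sources used here do not resolve this. Every pup received subcutaneous injections on postnatal day (PND) 1, 3 and 5 of either vehicle or estradiol benzoate (EB), an ester of estradiol, at 2.5 mg/kg. From PND 90 each adult carried 3 silastic implants. For control and EB rats all were empty, and for T+E and EB+T+E rats 2 held testosterone and 1 held estradiol. At PND 30 there were 4 control and 4 EB arrays. At PND 100 each of 4 groups (EB+T+E, T+E, EB, control) had 3 arrays, as at PND 145, where only EB had 4. The labels give 3 to 4 litters per group without saying whether an array is 1 animal or a pool, and the p-values rest on the spread among such arrays alone.

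Steroid hormones are made from cholesterol in a chain of steps. Star carries cholesterol into mitochondria, Cyp11a1 cuts its side chain to give pregnenolone, and Cyp17a1 turns C21 steroids into androgen precursors, a step that in rats takes place mainly in the gonads. Target tissues such as the prostate then adjust the hormone they receive: 5-alpha reductases (Srd5a1 and Srd5a2) convert testosterone into dihydrotestosterone, a more potent androgen, aromatase (Cyp19a1) converts androgens into estrogens, 17-beta-hydroxysteroid dehydrogenases interconvert active and less active forms, and steroid sulfatase (Sts) releases free steroids from their sulfates.

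The scaled level used throughout is log2 of a probe's background-subtracted signal divided by its array's 75th percentile, so 0 equals that percentile and negative levels lie under it. Levels are set side by side only for the same probe. Where groups are said not to overlap, the share of all genes without overlap was not determined. The 75th percentile was 1694 to 4737 before scaling, 61.5% to 68.9% of the 58717 spots on an array were well above background, and arrays of a group correlated at 0.864 to 0.986. Luminal, basal, smooth muscle and fibroblast markers were well above background on all arrays. Marker genes set 2 arrays apart: EB+T+E replicate 1 of PND 100 had the lowest summed luminal level (3.74) and the highest summed skeletal muscle level (7.21), and control replicate 2 of PND 145 had the highest summed spermatid level (6.17). Some results for the steroid enzymes and carriers that rest on these arrays are also given without both. Results for other pathway genes, steroid receptors and cell type markers are given only with these arrays included. The other PND 145 controls also had summed spermatid levels (-1.49 and 0.27) above every EB, EB+T+E and T+E array of that age (highest -2.69, -2.70 and -3.20). Leaving out control replicate 2 does not remove this difference, and its part in the PND 145 results was not tested. Since whole tissue was measured, fewer cells of a type and less RNA per cell cannot be told apart.

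All calls among these genes lay in comparisons of the combined EB+T+E treatment. At PND 145, 4 genes differed from control: Cyp17a1 and Sts were higher, and Hsd17b10 and Srd5a1 were lower. At PND 100, Cyp17a1 and Hsd17b10 were lower. Cyp17a1 was thus called in opposite directions at the 2 adult ages. At PND 100 only 1 of 3 EB+T+E arrays was well above background for it, and that call was lost in 7 of 17 alternative runs. With limma and Benjamini-Hochberg adjustment over all genes at 0.05, EB+T+E against control called 2 of 9 genes at PND 100, where 12.6% of all genes were called, and 4 of 9 at PND 145, where 35.3% were called. EB+T+E against EB called 1 of 9 at PND 100 (1.71% of all genes) and 3 of 9 at PND 145 (22.9%). Of these 3, 1 was Hsd17b2, which entered the test only through EB arrays. EB+T+E against T+E called 0 of 9 at PND 100 (4.01% of all genes, 2 members at an unadjusted p under 0.05) and 1 of 9 at PND 145 (21.4%).

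None of the 9 was called by limma for either treatment alone. EB against control gave 0 calls at PND 30 (0.0471% of all genes were called), PND 100 (2.69%) and PND 145 (0.570%), with 1, 2 and 3 members at an unadjusted p under 0.05. T+E against control gave 0 calls at PND 100 (0.193%) and PND 145 (0.381%), with 0 and 2 members at an unadjusted p under 0.05. Control PND 100 against control PND 30 gave 0 calls (2.24%, 2 members unadjusted), and control PND 145 against control PND 100 gave 0 (0% of all genes, 0 members unadjusted). The interaction of EB and T+E, a test of whether the combination departs from the sum of both effects, called 0 members at PND 100 (0%, 0 unadjusted) and PND 145 (0.771%, 1 unadjusted). The EB effect at PND 100 minus that at PND 30 called 0 members (0.0214%, 1 unadjusted), the EB effect at PND 145 minus that at PND 100 called 0 (0%, 0 unadjusted), and the T+E effect at PND 145 minus that at PND 100 called 0 (0.0257%, 1 unadjusted).

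After the values were seen, 4 further comparisons between PND 145 and PND 100 were added. Within EB+T+E 1 of 9 members was called (3.46% of all genes), and the EB+T+E effect at PND 145 minus that at PND 100 also called 1 (0.326%). In both the member was Cyp17a1. Within EB 0 were called (0.745%, 3 members unadjusted), and within T+E 0 (0.0428%, 1 member unadjusted). In EB+T+E at PND 145 the median log2 ratio against control was 0.13 for the members and -0.24 for all genes. At PND 100 it was -0.68 and -0.09. Comparisons of several treatments with the same control arrays share those arrays and are not independent. The grid of log2 ratios shows where the calls lie.

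**Figure D1:**
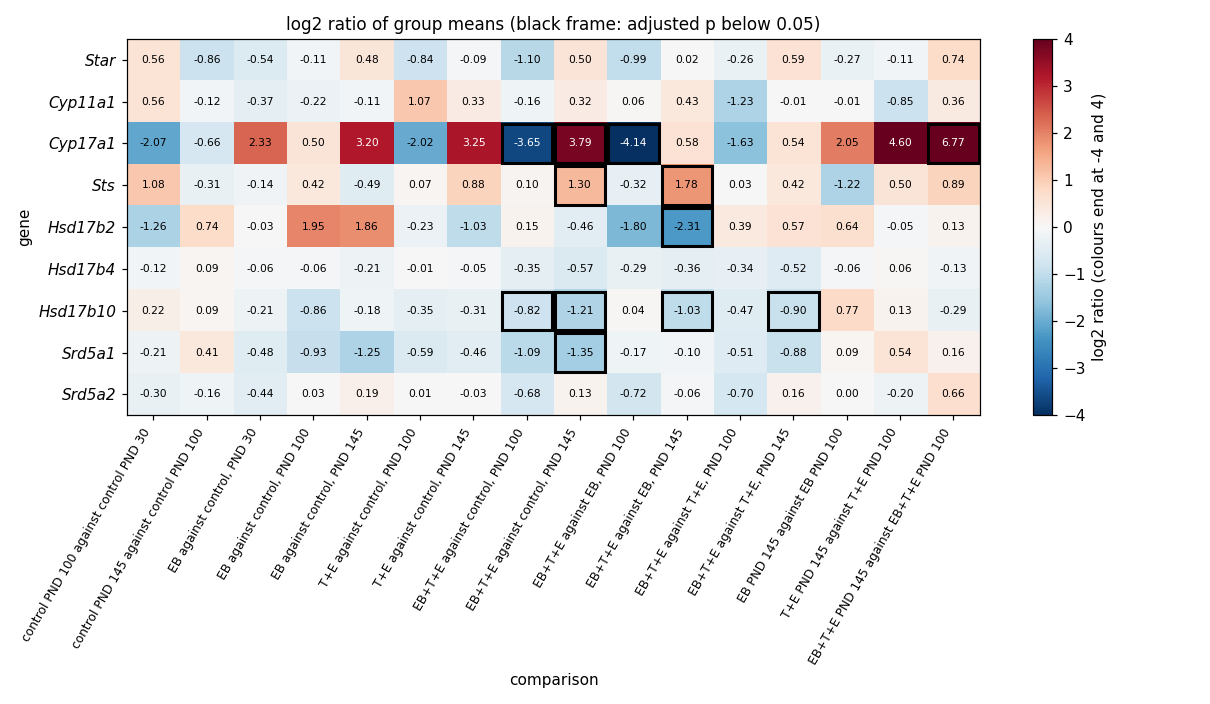
Log2 ratios of group means for the 9 tested genes (rows) in the 16 comparisons of 2 groups (columns), with red for higher and blue for lower in the group named first, colours ending at -4 and 4. Black frames mark an adjusted p under 0.05; they lie in the columns of EB+T+E, with Cyp17a1 ranging from -4.14 (EB+T+E against EB, PND 100) to 6.77 (EB+T+E, PND 145 against PND 100).

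Star, the cholesterol carrier that opens the pathway, stayed low in the scaled range, with levels of -8.72 to -5.59, and was well above background on 24 of 33 arrays. At PND 100 the control arrays lay at -6.49, -5.94 and -5.66 and the EB+T+E arrays at -7.09, -6.94 and -7.34. These groups did not overlap, but only 1 of the 3 EB+T+E arrays was well above background. The log2 ratio was -1.10 ± 0.46 (SE) with an adjusted p of 0.118 in limma, and -1.36 with an adjusted p of 0.0366 after quantile scaling. At PND 145 all controls (-6.73, -7.17 and -6.77) lay under the EB+T+E arrays (-5.96, -6.49 and -6.70), a ratio of 0.50 ± 0.46 with an adjusted p of 0.414. The second Star probe was well above background on 1 array, EB replicate 1 of PND 30, on which the first probe gave its lowest level. With the second probe at background on the other arrays, it gives no check of the first.

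Cyp11a1, the side-chain cleavage enzyme of mitochondria, was well above background on 31 arrays and passed the test in none of the comparisons. Its levels lay between -7.42 and -3.57. The highest were on T+E replicate 2 of PND 100 (-3.57) and control replicate 3 of PND 100 (-4.45), whose group mates lay at -6.00 and -5.51 and at -6.41 and -7.42. T+E against control at PND 100 gave 1.07 ± 0.59 (adjusted p 0.696). A second probe was well above background on 3 arrays: those 2 (-4.20 and -5.03) and control replicate 2 of PND 145 (-4.20), where the first probe gave -5.90. The array with the high spermatid level was thus also one of the 3 with a signal from this probe. Whether the 2 facts are linked was not tested.

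**Figure D2:**
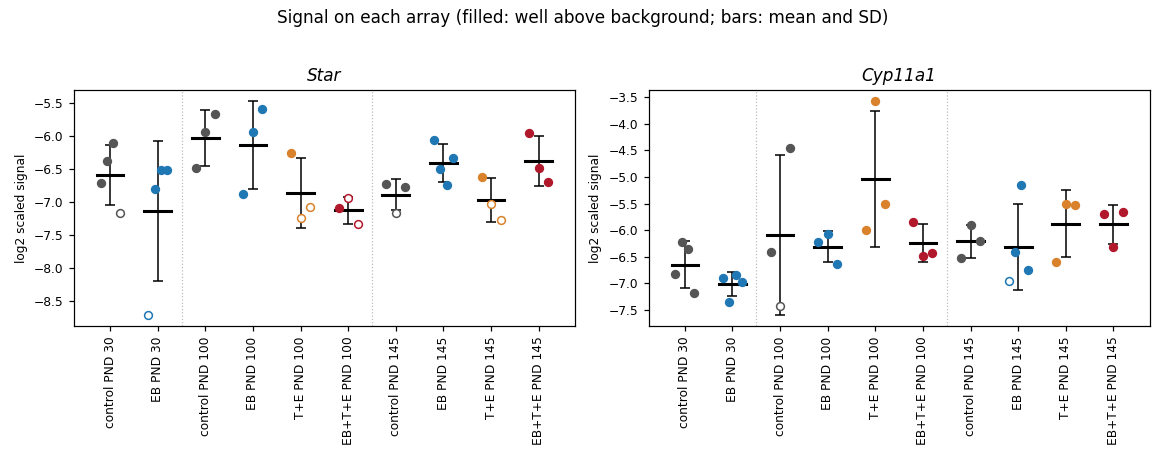
Scaled log2 level of Star and Cyp11a1 on each array (y axis) in the 10 groups (x axis), with filled points well above background, open points not, and black bars for mean and SD. Star does not exceed -5.59, and single Cyp11a1 arrays at PND 100 (-3.57 and -4.45) stand above their group mates.

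Cyp17a1, the 17-alpha-hydroxylase and 17,20-lyase that makes androgen precursors, had the widest range of the 10 genes, 11.25 log2 units between arrays. One 60-base probe carries this result, so its first 30 bases are shown (rn4 chr1:251965532-251965591, minus strand).
Cyp17a1 probe: gatccatacctcaacacccacagtacaatc
At PND 30 the controls lay at -1.10, -0.52, -1.31 and -2.34 and the EB arrays at 2.35, -0.32, 1.70 and 0.33. All 4 EB arrays were above all 4 controls, with a log2 ratio of 2.33 ± 0.88, but the adjusted p was 0.285. The adult controls lay at -3.70, -3.33 and -3.15 at PND 100 and -2.56, -4.90 and -4.69 at PND 145. The ratio of PND 100 to PND 30 controls was -2.07 ± 0.95 (adjusted p 0.313), and 0.0204 when only these 2 groups were fitted.

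At PND 100 the 2 groups with hormone implants had the lowest Cyp17a1 means. The T+E arrays lay at -4.71, -5.29 and -6.22, under all controls, with a ratio of -2.02 ± 1.01 and an adjusted p of 0.621. The EB+T+E arrays lay at -7.22, -4.98 and -8.91, and only the one at -4.98 was well above background. EB+T+E fell against control by 3.65 ± 1.01 on the log2 scale (adjusted p 0.019 in limma) and against EB, whose arrays spread from -5.22 to -0.02, by 4.14 ± 1.01 (adjusted p 0.0324). These sizes rest on 2 arrays without a measured level; with both raised to the lowest signal well above background on their array, the differences were -2.96 and -3.46. Each call was lost when single arrays were left out: the first without control 2 or 3 or EB+T+E 1 or 3 (adjusted p 0.0555 to 0.0843), the second without EB 2 or 3 or EB+T+E 1 or 3 (0.079 to 0.209, with -2.70 without EB 2). With normexp background correction, which draws dim values together, the ratios were -1.59 (adjusted p 0.25) and -2.20 (0.197). Fitting only the groups compared gave adjusted p-values of 0.193 and 0.986, and leaving out both arrays that stood apart gave -3.56 (0.0891) and -4.05 (0.147). Within slides the differences were -4.07 and -1.29 against control, and -7.20, -1.53 and -3.69 against EB.

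At PND 145 only the EB+T+E difference passed, though the arrays of all 3 treatments lay above control. The EB arrays lay at -1.76, -0.29, -0.59 and -0.75, the T+E arrays at -2.33, 0.96 and -1.04, and the EB+T+E arrays at -0.62, -0.61 and 0.44. Each of these 10 values was above every control of that age. The ratio was 3.79 ± 1.01 for EB+T+E (13.8-fold higher, adjusted p 0.00566), while EB (3.20 ± 0.95, adjusted p 0.113) and T+E (3.25 ± 1.01, adjusted p 0.189) did not pass. EB+T+E differed from EB by 0.58 (95% interval -1.36 to 2.53) and from T+E by 0.54 (-1.54 to 2.62). The call against control held under every alternative run, with ratios of 3.31 to 4.53 and adjusted p-values of 0.00364 to 0.0325. Without both arrays that stood apart it was 3.36 (adjusted p 0.0315), and within slides 4.30 and 5.13.

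From PND 100 to PND 145, Cyp17a1 rose in EB+T+E by 6.77 ± 1.01 on the log2 scale (adjusted p 2.82e-04), or by 6.09 with the 2 dim arrays of PND 100 raised in the same way, where the controls changed by -0.66 ± 1.01 (adjusted p 1). This call was lost only when just these 2 groups were fitted (adjusted p 0.0822), and normexp correction gave 4.47 (0.00153). Within T+E the ratio was 4.60 ± 1.01 (adjusted p 0.0686, and 0.0213 with slide as a block), and within EB 2.05 ± 0.95 (0.291). The EB+T+E effect at PND 145 exceeded that at PND 100 by 7.43 ± 1.43 (adjusted p 0.0199, and 6.75 with the 2 dim arrays raised), and the T+E effect by 5.26 ± 1.43 (0.361). The first of these 2 was lost in 10 of 23 alternatives, with adjusted p-values up to 0.127. In order of group means, EB at PND 30 was highest (1.02 ± 1.22, SD, n = 4), followed by EB+T+E (-0.26 ± 0.61, n = 3), T+E (-0.80 ± 1.65, n = 3) and EB (-0.85 ± 0.64, n = 4) of PND 145 and the PND 30 controls (-1.32 ± 0.76, n = 4). Then came EB at PND 100 (-2.90 ± 2.64, n = 3), control at PND 100 (-3.39 ± 0.28, n = 3) and PND 145 (-4.05 ± 1.29, n = 3), T+E at PND 100 (-5.41 ± 0.76, n = 3) and EB+T+E at PND 100 (-7.04 ± 1.97, n = 3). In this order the arrays of each group overlapped those of the next.

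Markers of other steroid-making cells were read beside these values. Of 4 Leydig cell markers, the luteinising hormone receptor Lhcgr and the steroidogenic factor Nr5a1 were well above background on 0 of 33 arrays. Hsd17b3 was well above background on 3 arrays, none of them a control or EB+T+E array. Insl3, a Leydig cell hormone, was well above background on every array and lay at -3.93 to -3.35 in EB+T+E at PND 145 against -5.03 to -4.07 in control. The summed Leydig level was -3.78 to -3.30 in that group and -4.80 to -3.92 in control. The 4 adrenal cortex markers did not move together. The 11-beta-hydroxylase Cyp11b1 was well above background on 3 of 3 EB+T+E arrays of PND 145 (-6.74 to -5.46), on 2 of 3 of PND 100, the group with the lowest Cyp17a1, and on 0 of 3 controls at both ages. It was also so on 2 of 3 EB arrays of PND 100, 1 of 3 T+E arrays of PND 145 and 1 of 4 EB arrays of PND 30. The aldosterone synthase Cyp11b2 and the corticotropin receptor Mc2r were so on 0 EB+T+E arrays of either age, and Cyp21a1 on 3 of 3 arrays of both EB+T+E and control at PND 145. Cyp11b2 was well above background on 1 of 3 controls of PND 100. Mc2r was so on 1 of 3 controls of PND 145 and 1 of 3 T+E arrays of PND 100. The summed adrenal level was -4.93 to -4.49 in EB+T+E and -6.21 to -4.66 in control at PND 145. The part of these markers in the Cyp17a1 values was not tested.

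**Figure D3:**
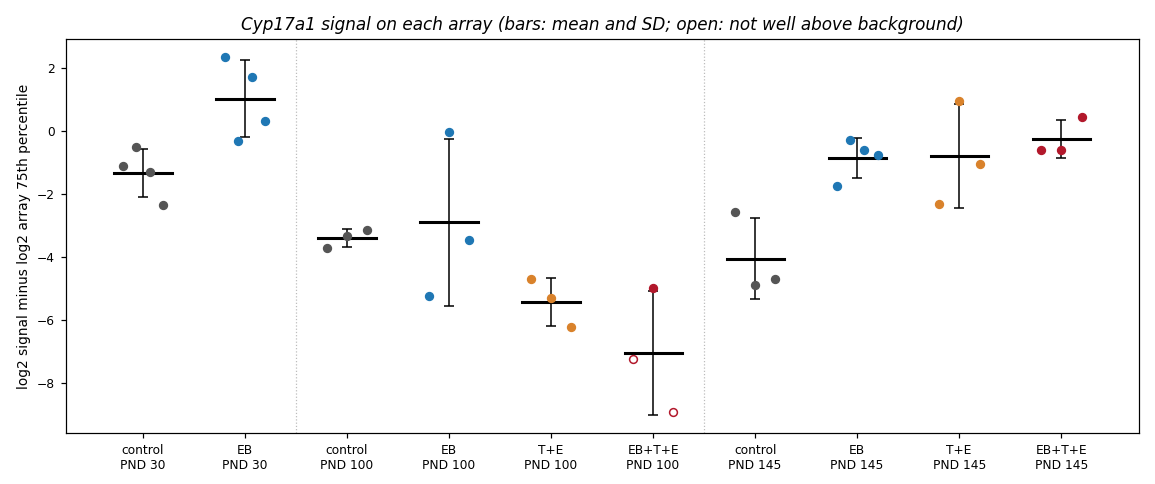
Scaled log2 level of Cyp17a1 on each array (y axis) in the 10 groups (x axis), with open points not well above background and black bars for mean and SD. The EB+T+E arrays lie between -8.91 and -4.98 at PND 100 and between -0.62 and 0.44 at PND 145, while the adult controls lie between -4.90 and -2.56.

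Cyp19a1, the aromatase that makes estrogens from androgens, was well above background on 0 of 33 arrays, including every group with hormone implants and every EB-exposed group. Its single probe gave levels of -9.96 to -7.96 and was not tested. At this sensitivity no Cyp19a1 signal could be told from background, which does not show that the transcript was missing.

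Hsd17b2 oxidises estradiol and testosterone to their less active 17-keto forms. It was well above background on only 6 of 33 arrays, and all 6 belonged to EB groups without hormone implants: 1 of 4 at PND 30, 2 of 3 at PND 100 and 3 of 4 at PND 145. It thus entered the test only through EB arrays, and its comparisons with EB are conditioned on that. In EB of PND 145 the arrays lay at -6.66, -7.47, -4.38 and -7.06, and in EB+T+E, where none was well above background, at -9.92, -8.82 and -7.38. EB+T+E was at least 2.09-fold lower than EB there (fitted log2 ratio -2.31 ± 0.64, adjusted p 0.0107). The groups overlapped, since EB+T+E 3 lay above EB 2. The call was lost without EB 3 (-1.64, adjusted p 0.0523, at least 1.31-fold lower), without EB+T+E 1 (-1.71, 0.111) and in a fit of only those 2 groups (0.104), and normexp correction gave -0.85 (0.0442). The gene did not enter the test under the filter of 17 arrays. EB against control was at least 1.13-fold higher at PND 100 (adjusted p 0.0958) and at least 1.70-fold higher at PND 145 (0.169), with no overlap at either age and neither called. These bounds and the one against EB+T+E are not strict. EB 3 of PND 100 (-8.20) and EB 2 of PND 145 (-7.47) were not well above background and entered with their own signal. Without EB 3 the bound at PND 145 was 1.07-fold, and without EB 1 or EB 2 there was none at PND 100. Cyp19a1, at background on all arrays, also showed no overlap between EB and control at PND 100.

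Hsd17b4, the peroxisomal multifunctional enzyme that shortens very long fatty acids and can oxidise estradiol, was well above background on all arrays and kept to a narrow range of 0.71 to 2.09. At PND 145 the EB+T+E arrays (1.19, 1.06 and 1.24) lay under the controls (1.66, 1.75 and 1.79). The log2 ratio was -0.57 ± 0.25 with an adjusted p of 0.0781, and 0.0455 with slide as a block and 0.0231 in a fit of only these groups. In none of the other comparisons of 2 groups did its ratio leave the range of -0.52 to 0.09.

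Hsd17b10, a mitochondrial enzyme of steroid and isoleucine breakdown that is also a subunit of mitochondrial RNase P, was called in 4 comparisons. It was well above background on all 33 arrays. At PND 145 the controls lay at 2.67, 2.72 and 2.36, the EB arrays at 2.38, 2.09, 2.80 and 2.33, the T+E arrays at 2.19, 1.98 and 2.65, and the EB+T+E arrays at 1.23, 1.42 and 1.47. All EB+T+E arrays were thus under every other array of that age. Hsd17b10 fell in EB+T+E by 1.21 ± 0.24 on the log2 scale against control (2.31-fold lower, adjusted p 4.96e-04), by 1.03 ± 0.23 against EB (0.00197) and by 0.90 ± 0.24 against T+E (0.00916). The first and second calls held in every alternative, and the third was lost without T+E 3 (-0.71, adjusted p 0.0855). Within slides the difference from control was -1.30 and -0.89. After quantile scaling it was -0.87 (adjusted p 0.00173).

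At PND 100 the Hsd17b10 controls lay at 2.35, 2.13 and 2.99, the EB arrays at 1.90, 1.85 and 1.15, the T+E arrays at 2.56, 1.89 and 1.97, and the EB+T+E arrays at 1.45, 1.68 and 1.87. Both groups that had received EB lay wholly under the controls. EB+T+E fell by 0.82 ± 0.24 (adjusted p 0.0254) and EB gave -0.86 ± 0.24 (0.051). This call was lost without control 1 or 3 or EB+T+E 1, without both arrays that stood apart (-0.72, adjusted p 0.155), with normexp correction (0.0615) and in a fit of only the 2 groups (0.257). The EB ratio passed under the filter of 17 arrays (adjusted p 0.0492), with slide as a block (0.0236) and without EB 1 (0.0182). EB at PND 145 was at 2.40 ± 0.29 (SD, n = 4) and at PND 100 at 1.63 ± 0.42 (n = 3), a ratio of 0.77 ± 0.23 (adjusted p 0.0989).

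The promoters of the called members that have an entry in the RefSeq promoter table are shown for Hsd17b10, Srd5a1 and Sts. The windows are of build GRCr8, 250 bases before to 50 bases after the start, and 6 of the 10 members matched. Capitals mark 1 element picked for each gene, and matches to the other elements stay in small letters. Marked are a CCAAT box in Hsd17b10, the GC box GGGCGG on either strand in Srd5a1, and the cAMP response element TGACGTCA in Sts.
Hsd17b10 promoter (GRCr8 chrX:24568301-24568600, plus strand): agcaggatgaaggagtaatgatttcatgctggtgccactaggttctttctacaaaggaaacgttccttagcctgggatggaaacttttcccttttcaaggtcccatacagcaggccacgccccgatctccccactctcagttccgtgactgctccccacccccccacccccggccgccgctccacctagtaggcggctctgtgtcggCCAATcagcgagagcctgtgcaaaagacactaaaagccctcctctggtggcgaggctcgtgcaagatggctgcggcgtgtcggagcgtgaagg
Srd5a1 promoter (GRCr8 chr1:35514664-35514963, plus strand): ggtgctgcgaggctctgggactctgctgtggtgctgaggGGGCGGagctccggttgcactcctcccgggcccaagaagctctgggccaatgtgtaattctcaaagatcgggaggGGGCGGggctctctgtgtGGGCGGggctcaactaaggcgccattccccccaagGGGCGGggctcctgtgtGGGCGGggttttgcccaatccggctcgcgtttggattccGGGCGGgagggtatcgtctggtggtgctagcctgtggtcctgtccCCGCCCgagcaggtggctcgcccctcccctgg
Sts promoter (GRCr8 chrX:46102510-46102809, plus strand): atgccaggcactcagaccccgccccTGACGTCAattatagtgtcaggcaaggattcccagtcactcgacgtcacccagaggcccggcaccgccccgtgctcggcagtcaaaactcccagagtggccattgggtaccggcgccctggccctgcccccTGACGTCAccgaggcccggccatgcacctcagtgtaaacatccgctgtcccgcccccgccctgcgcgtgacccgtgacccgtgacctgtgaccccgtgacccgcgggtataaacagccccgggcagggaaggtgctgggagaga
The Srd5a1 window held 7 GC boxes, a number reached by 0.52% of 33469 windows of the same length, of which 33.1% held at least 1. The Sts window held 2 full cAMP response elements, as did 0.0418% of windows, with 1.83% holding at least 1, and also 4 GC boxes. Hsd17b10 held 0 GC boxes and 1 CCAAT box, present in 37.5% of windows. The CCAAT box was not particular to it, with 2 in Srd5a1 and 1 in Sts. The androgen receptor half-site AGAACA, also searched, had 0 matches in Hsd17b10, Srd5a1 and Sts. All motifs were searched on both strands. A match describes letters and no site of binding. The marked element was picked for each gene and the shares are given at the counts found, so they are no test.

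Srd5a1, the 5-alpha reductase with wide tissue distribution, was well above background on all arrays. The PND 145 controls lay close together, at -1.76, -1.65 and -1.57, while the EB arrays lay at -2.60, -2.84, -3.47 and -2.73, the T+E arrays at -2.11, -2.76 and -1.51, and the EB+T+E arrays at -3.76, -2.92 and -2.35. Every EB and every EB+T+E array was under every control, and T+E overlapped the controls. Srd5a1 fell in EB+T+E by 1.35 ± 0.47 (2.54-fold lower, adjusted p 0.0274), and EB gave -1.25 ± 0.44 (0.174). EB+T+E differed from EB by -0.10 (95% interval -0.99 to 0.80). The EB+T+E call was lost without any 1 of the 3 controls or without EB+T+E 1 or 2 (adjusted p 0.0507 to 0.169, with -0.97 without EB+T+E 1), and leaving out both arrays that stood apart kept it (-1.34, 0.0239). Within slides the difference was -1.26 and -0.78.

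At PND 100 the Srd5a1 controls lay at -2.06, -2.26 and -1.91, the EB arrays at -2.13, -3.14 and -3.73, the T+E arrays at -2.09, -2.81 and -3.08 and the EB+T+E arrays at -4.59, -2.34 and -2.57. The EB+T+E groups of both ages, EB at PND 100 and EB at PND 145 had the 4 lowest means, -3.17 to -2.91, which did not differ from each other beyond their SDs of 0.39 to 1.24. The lowest value was that of EB+T+E replicate 1, the array with the low luminal level, and the ratio of EB+T+E to control was -1.09 ± 0.47 (adjusted p 0.125) with all arrays and -0.38 ± 0.44 without both arrays that stood apart. At PND 30 the EB arrays (-1.80, -2.06, -2.63 and -2.88) overlapped the controls (-2.03, -2.08, -1.75 and -1.61), with a ratio of -0.48 ± 0.41.

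Srd5a2, the 5-alpha reductase typical of male accessory glands, passed the test in none of the comparisons, and its levels stayed between -5.32 and -3.86. EB+T+E at PND 100 had the lowest mean, with arrays at -5.29, -4.94 and -5.32 against controls at -4.65, -3.86 and -4.98. The ratio was -0.68 ± 0.29 (95% interval -1.29 to -0.08, adjusted p 0.124). EB+T+E lay under all EB arrays (-4.57, -4.33 and -4.50) at that age, with -0.72 ± 0.29 (adjusted p 0.217). Against control at PND 145 it gave 0.13 (-0.47 to 0.73). Of its 3 probes, 2 carry the same 60 bases (rn4 chr6:21489193-21489252) and tracked each other (r = 0.93 over 33 arrays, with a median difference of 0.14), and the third was well above background on 6 arrays only.

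Sts, the sulfatase that frees estrone and dehydroepiandrosterone from their sulfates, was well above background on all arrays. The controls lay at -3.51, -3.17, -3.37 and -3.24 at PND 30, at -2.34, -1.89 and -2.50 at PND 100 and at -2.84, -2.40 and -2.41 at PND 145. All adult controls were above all PND 30 controls. The ratio of PND 100 to PND 30 was 1.08 ± 0.32 with an adjusted p of 0.081, and 0.0141 in a fit of only these groups. At PND 145 the EB arrays lay at -3.10, -2.76, -3.31 and -2.98, the T+E arrays at -1.70, -1.55 and -1.77, and the EB+T+E arrays at -1.34, -0.95 and -1.46. All 6 arrays of groups with hormone implants were above all controls and all EB arrays. Sts rose in EB+T+E by 1.30 ± 0.35 against control (2.46-fold higher, adjusted p 0.00572) and by 1.78 ± 0.32 against EB (3.45-fold higher, 3.67e-04).

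T+E against control gave 0.88 ± 0.35 (adjusted p 0.353) for Sts at PND 145, and EB+T+E differed from T+E by 0.42 (95% interval -0.29 to 1.13). Both EB+T+E calls held in every alternative, with ratios of 1.07 to 1.40 and 1.54 to 1.90. Within slides the differences were 1.45 and 0.95 against control and 1.75, 1.81 and 1.85 against EB. At PND 100 the arrays spread more, with EB at -2.57, -1.82 and -1.07 and EB+T+E at -1.46, -1.70 and -3.26, and both overlapped the controls. In EB, Sts was at -1.82 ± 0.75 (SD, n = 3) at PND 100 and at -3.04 ± 0.23 (n = 4) at PND 145, a ratio of -1.22 ± 0.32 (adjusted p 0.0721, and 0.00702 without EB 1 of PND 100).

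**Figure D4:**
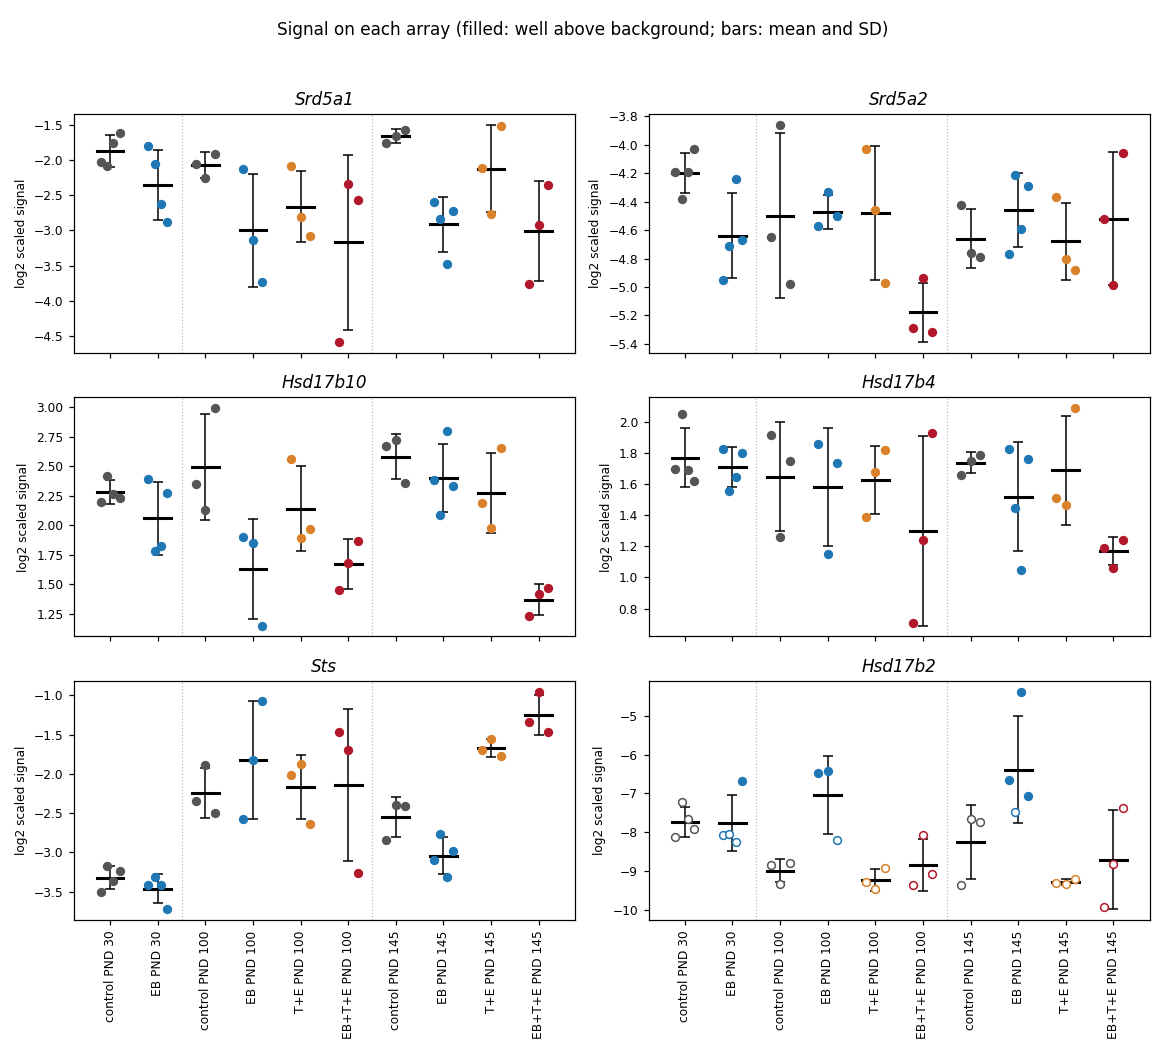
Scaled log2 level (y axis) of Srd5a1, Srd5a2, Hsd17b10, Hsd17b4, Sts and Hsd17b2 on each array in the 10 groups (x axis), with open points not well above background and black bars for mean and SD. At PND 145 the EB+T+E arrays lie under the controls for Srd5a1, Hsd17b10 and Hsd17b4 and above them for Sts. All filled points of Hsd17b2 belong to EB groups without hormone implants.

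The first 30 bases of the other 3 probes behind the calls identify what was read, for Srd5a1 at rn4 chr17:3878645-3878704, for Hsd17b10 at rn4 chrX:41491297-41491356 and for Sts at rn4 chrX:63923747-63923806, all on the plus strand of that build.
Srd5a1 probe: tctggttcgcagaatgtctagatttgaccc
Hsd17b10 probe: gcatgacactgcccattgctcgagatctgg
Sts probe: aacatgtatgaacatgtgtatgctgagtac
Each of these genes and Cyp17a1 rests on 1 probe, so no second probe could be set against it.

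Other genes of these pathways were read from a list of 85, of which 65 were tested. EB+T+E against control called 10 at PND 100 (6 higher, 4 lower) and 26 at PND 145 (10 higher, 16 lower), where 12.6% and 35.3% of all genes were called, with medians over the 65 of -0.12 and -0.24 beside -0.09 and -0.24 over all genes. Of the mitochondrial partners of Hsd17b10, Hibch, an enzyme of valine breakdown, fell by 1.04 ± 0.17 at PND 100 (adjusted p 9.11e-04) and by 1.49 ± 0.17 at PND 145 (1.89e-06), and Acat1, the thiolase that follows Hsd17b10 in isoleucine breakdown, fell by 1.30 ± 0.19 at PND 145 (2.39e-05). These 2 of the 5 tested partners were called at PND 145 and 1 at PND 100, none of them upward. Hibch was also called for the interaction of EB and T+E at PND 145 (-1.12 ± 0.24, adjusted p 0.0216). Acat1 fell from PND 100 to PND 145 within EB+T+E by 0.76 ± 0.19 (adjusted p 0.0257).

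Of the 12 tested genes of peroxisomal beta-oxidation, the pathway of Hsd17b4, EB+T+E lowered 6 and raised 1 at PND 145, where 35.3% of all genes were called, and lowered 1 at PND 100, where 12.6% were. Pex14, a docking factor for peroxisomal import, fell by 1.88 ± 0.33 at PND 145 (adjusted p 1.09e-04), and the bifunctional enzyme Ehhadh by 2.34 ± 0.59 at PND 100 (0.0107). The reductive 11-beta-hydroxysteroid dehydrogenase Hsd11b1, which regenerates active glucocorticoid, rose by 1.34 ± 0.36 at PND 100 (0.0155) and by 2.14 ± 0.36 at PND 145 (7.55e-05). The mitochondrial outer membrane protein Tspo, which binds cholesterol, rose by 1.16 ± 0.30 at PND 100 (0.0129). Of the 9 other tested 17-beta-hydroxysteroid dehydrogenases, 2 were lower and 0 higher at PND 145, a smaller share than the 35.3% of all genes.

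Against EB at PND 145, EB+T+E called 19 of the 65 (5 higher, 14 lower, beside 22.9% of all genes), led by Hibch (-1.52 ± 0.16, adjusted p 1.26e-06), Acat1 (-1.09 ± 0.18, 1.57e-04), the retinol and steroid dehydrogenase Dhrs9 (at least 7.61-fold higher, 3.69e-04) and Hsd17b8 (-0.80 ± 0.17, 0.00123). Against T+E it called 16 (3 higher, 13 lower, beside 21.4% of all genes), led by Hibch (-1.09 ± 0.17, 1.35e-04), Pex14 (-1.61 ± 0.33, 0.00103), Dhrs9 (at least 7.14-fold higher, 0.00112) and the electron donor Cyb5b (-1.53 ± 0.37, 0.00457). At PND 145 Dhrs9 was well above background on 3 of 3 EB+T+E arrays, 0 of 4 EB arrays and 0 of 3 T+E arrays. Its EB+T+E arrays alone were enough for the filter of 3 arrays, so its tests may be conditioned on the group where it is high. EB alone called 1 gene of the list at PND 100, the nuclear receptor Nr5a2 (2.94 ± 0.71, 0.0305, with 1 of 3 controls well above background), and 1 at PND 145, the membrane estrogen receptor Gper1 (-2.84 ± 0.65, 0.0396). T+E alone called 0 at either age.

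Among the receptors for the products of these enzymes, the estrogen receptor Esr1 fell in EB+T+E at PND 145 by 1.22 ± 0.44 against EB (adjusted p 0.0475) and by 1.36 ± 0.47 against T+E (0.0424), and against control it gave -0.42 ± 0.47 (0.509). Esr2 was called in none of the comparisons (lowest adjusted p 0.344). The progesterone receptor Pgr, an estrogen-induced gene in many tissues, was at least 1.76-fold higher in EB+T+E than in control at PND 145 (adjusted p 0.0105), well above background on 2 of 3 arrays against 0 of 3.

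Markers of other cell types moved with the same contrasts. In EB+T+E against control at PND 145, where 35.3% of all genes were called, 10 of 10 leukocyte and 7 of 7 fibroblast markers were higher (medians 4.78 and 2.23). Of 10 luminal markers, 5 were lower and 1 higher (median -1.03). The summed leukocyte level was 4.26 to 5.53 in EB+T+E and 0.36 to 1.12 in control, and the summed luminal level 5.14 to 6.49 and 6.78 to 6.99. Summed basal (2.15 to 2.74 against 3.10 to 3.98), seminal vesicle (4.71 to 5.51 against 6.34 to 7.84) and dorsolateral levels (5.94 to 6.80 against 7.56 to 7.71) were also lower. Adipocyte levels were higher (2.61 to 3.68 against -0.63 to 1.52), and smooth muscle levels overlapped. At PND 100, where 12.6% of all genes were called, 6 of 10 leukocyte and 3 of 7 fibroblast markers were higher in EB+T+E and 4 of 10 luminal markers lower. These counts include EB+T+E replicate 1, whose summed luminal level was 3.74, with 6.26 and 6.41 on its group mates. EB at PND 100 had 7 of 10 leukocyte markers higher (2.69% of all genes were called). T+E at PND 145, the group in which Sts was also above all controls, had 0 of 10 called (0.381% of all genes). Its summed leukocyte levels (1.45 to 2.48) and fibroblast levels (4.47 to 5.20 against 3.44 to 3.78) lay above those of all controls of that age. The part of these cell types in the values of Srd5a1, Hsd17b10, Sts and Cyp17a1 was not tested.

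**Figure D5:**
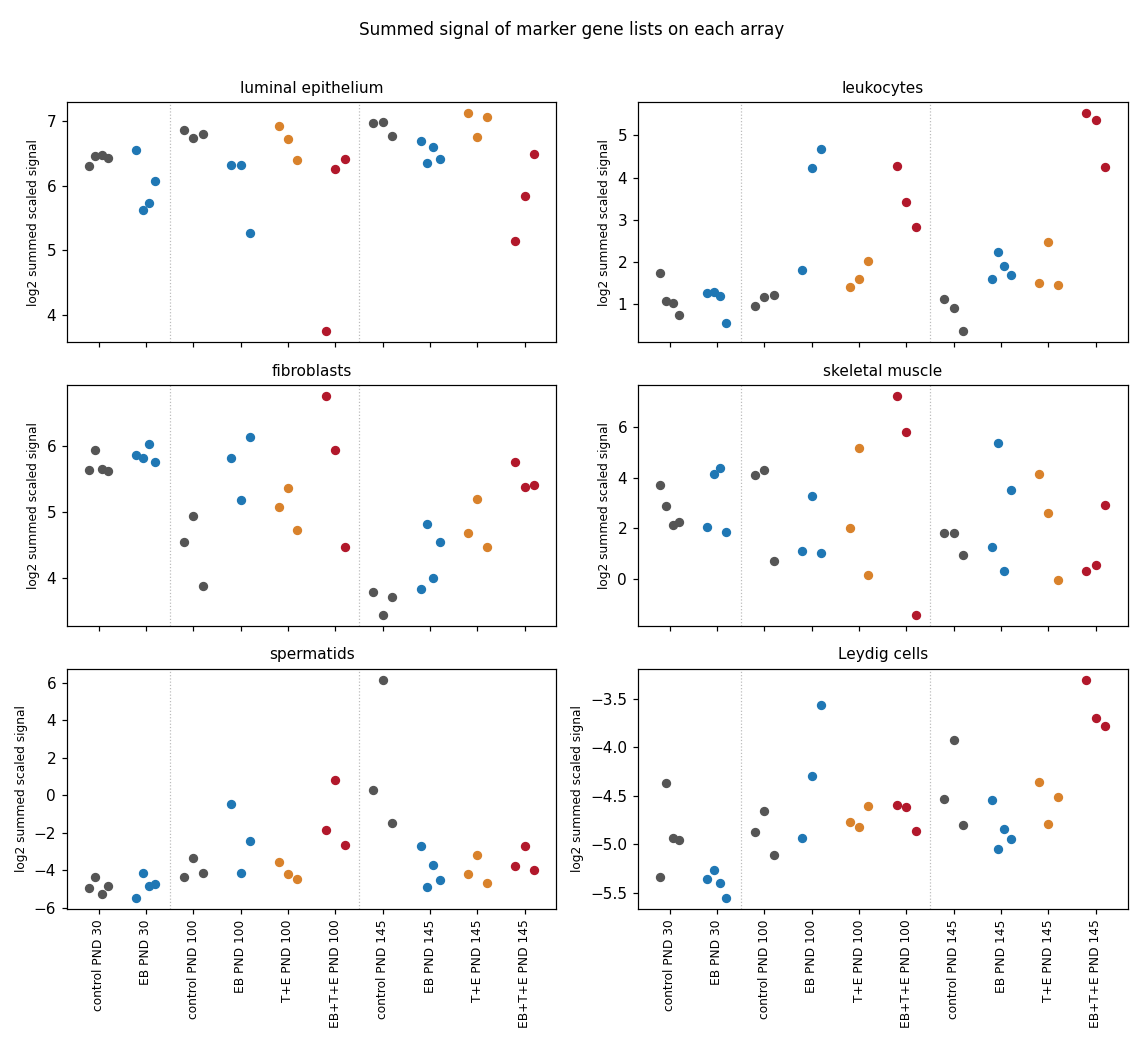
Log2 of the summed scaled signal (y axis) of 6 marker lists on each array in the 10 groups (x axis), coloured by treatment. Leukocyte sums of EB+T+E at PND 145 (4.26 to 5.53) lie above all controls, the lowest luminal and highest skeletal muscle points are EB+T+E replicate 1 of PND 100, and the highest spermatid point (6.17) is control replicate 2 of PND 145.

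Across the 33 arrays, the genes whose levels ran most like each member's were found by Pearson correlation among 15624 genes with a symbol. This describes arrays of 10 groups that share treatments and cell makeup. Cyp17a1 ran most like Agr3 (r = 0.87) and Agr2 (0.84), Hsd17b10 like Nudt16l1 (0.92) and Cacfd1 (0.91), Srd5a1 like Sox12 (0.87) and Mdh1 (0.86), and Sts like Sh3bp2 (0.90) and Cpne8 (0.88). Hsd17b4 ran most like Ppp2ca (0.84) and Aifm1 (0.79). For the dimmer or less variable members the highest values were lower, with Star and Pnisr (0.78) and Mdm4 (0.77), Hsd17b2 and Naaladl2 (0.77) and Spidr (0.77), Cyp11a1 and Oxtr (0.73) and Mst1 (0.72), and Srd5a2 and P2rx1 (0.72) and Kcng1 (0.71).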

How the data were processed

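Each of the 33 prostate RNA samples was labelled with Cy3 and read on 1 single-colour Agilent array, per the labels' protocols. Feature Extraction 12.0.0.7 read the images, per the file headers, and the submitters' processing notes name the same software. The deposited spot values are linear intensities from which the authors' software had subtracted background on each array, and they were not put on a common scale. A second deposited table, also of intensities by the authors, was found to have nearly the same 75th percentile on all arrays; the sources used here do not say how it was made, and it served as an alternative.

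Here each deposited intensity was divided by its array's 75th percentile and taken to log2, outlier spots were dropped, and spots of a probe averaged. The filter required a probe to be well above background on 3 or more of the 33 arrays. Different probes of a gene were represented by the brightest. With limma 3.58.1 (R 4.3.3, trended and robust variance) 1 model held the means of the 10 groups, with Benjamini-Hochberg adjustment over 23345 genes and a threshold of 0.05, in 18 comparisons and 4 more added after the values were seen. Values after ± are SEs from this fit unless marked SD. For bounds ("at least"), each array of the dim group entered with its own signal or, if brighter, the dimmest signal called well above background on it. Arrays of the brighter group entered with their own signal. Where some of those were not well above background, the bound is not strict. The fit was tested on simulated data.

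Alternatives were quantile scaling, normexp correction with an offset of 50, filters of 0 and of 17 arrays, slide or replicate number as a block, a fit of only the groups compared, the second deposited table, the mean of a gene's probes, plain variance and each array left out. Leaving out both arrays that stood apart, and raising dim Cyp17a1 values to the lowest signal well above background, were chosen after seeing the data. The members and lists were chosen with earlier results of these data known. By rule the text names all members, up to 4 listed pathway genes with the smallest p per comparison, 3 steroid receptors, and the 2 genes most like each member; 1 further gene of that rule is not reported here. Same-numbered replicates did not deviate together in every comparison, and numbers were not taken as pairs in the main fit. Promoter sequences are from RefSeq (GRCr8) and probe positions from the files (rn4), with no position carried between builds.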

Additional observations from a re-analysis of the deposited data

Results flagged for a closer look

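Of 27 sets of 4 arrays (9 genes in 3 groups), 2 held 1 array far from the other 3, and chance alone marks about 1 in 20 such sets. Star lay at -8.72 on EB replicate 1 of PND 30, with the other 3 arrays between -6.81 and -6.51. Hsd17b2 lay at -6.68 on EB replicate 4 of PND 30, the only array of its group on which it was well above background, with the others between -8.24 and -8.05. The effect of EB+T+E on Cyp17a1 differed between ages by a direct test, being 7.43 log2 units higher at PND 145 than at PND 100 (adjusted p 0.0199 in limma). This comparison was added after the values were seen, the EB+T+E group of PND 100 has 1 of 3 arrays well above background, and the call was lost in 10 of 23 alternatives, with adjusted p-values up to 0.127.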

How the results depend on the processing

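Calls of Cyp17a1, Hsd17b10 and Sts in EB+T+E against control, and of Hsd17b10 and Sts against EB, all at PND 145, held in every alternative run. Some of these runs could change little. Each of these genes has 1 probe, so the mean of a gene's probes leaves its values as they were. The second deposited table correlated with the values used here at 0.999982 or more on every array. Calls at PND 100 were less stable. Under normexp correction the count of members called was 0 in EB+T+E against control and against EB at PND 100 and 0 for the EB+T+E effect at PND 145 minus that at PND 100. Under the filter of 17 arrays that effect gave 0, and EB against control at PND 100 gave 1. With slide as a block, EB against control at PND 100 gave 1 and T+E at PND 145 against PND 100 gave 1. Fits of only the groups compared gave 2 for the controls of PND 100 against PND 30, 0 in EB+T+E against control and 0 against EB at PND 100, and 0 for EB+T+E at PND 145 against PND 100. Without both arrays that stood apart, a choice made after seeing the data, EB+T+E against control and against EB at PND 100 gave 0, as did the EB+T+E effect at PND 145 minus that at PND 100. The causes were not tested. The last 2 settings also held fewer arrays.

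Leaving out 1 array in turn gave, at PND 100, 0 to 3 calls when control was set against EB+T+E, 0 to 1 when EB was set against control and 0 to 1 when EB was set against EB+T+E. It gave 0 to 1 in EB+T+E against T+E (PND 145), 0 to 2 for EB at PND 145 against PND 100, and 0 to 1 for the EB+T+E effect at PND 145 minus that at PND 100. With the replicate block, the member counts were the same as without it in every comparison, for example 4 in EB+T+E against control (PND 145) and 2 at PND 100. The deviations of same-numbered arrays correlated at -0.27 to 0.19, and those of other pairs at -0.25 to 0.29. In EB against control at PND 100, all same-numbered pairs (0.07 to 0.16) lay above all others (-0.15 to 0.04). The same held in EB+T+E against control at PND 145 (0.07 to 0.17 against -0.14 to 0.06). Whether the numbers stand for shared litters is thus not settled. Quantile scaling moved the median of all genes in EB+T+E against control at PND 145 from -0.24 to -0.13, and no member changed sign with a call. The number of arrays limits the precision, and Cyp19a1, Hsd17b2 and Star lie at or near background.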
